A study of Mus musculus with 5 samples.

Results

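The genes described here are 56 mouse genes of transforming growth factor beta (TGF-beta) and bone morphogenetic protein (BMP) signalling, chosen by symbol from the 54532 genes of the deposited count table. They comprise 18 ligand genes, 12 receptor and coreceptor genes, 11 genes of antagonists and other extracellular modulators, 8 SMAD genes, 3 ID target genes and 4 latent TGF-beta binding protein genes. RNA was sequenced from 5 libraries of adipose stem cells of wild-type mice on a chow diet, sorted from the stromal fraction of subcutaneous (SAT) and visceral (VAT) fat. Per the labels, the fat came from 30 mice aged 12 to 14 weeks, cells with the endothelial antigen CD31 or the leukocyte antigen CD45 were gated out, and the remaining cells were sorted on CD26 and CD142. Dpp4 encodes CD26, a marker of interstitial progenitors, and F3 encodes CD142, a marker of progenitors known for restraining adipogenesis. The libraries were 1 SAT CD26-CD142+ library by title (SAT library 2), 1 SAT CD26+CD142- library by title (SAT library 1), 1 VAT CD26+CD142+ library and a pair of VAT CD26-CD142+ libraries. The labels do not say that libraries came from separate pools of mice, so every p-value here measures only the spread between these samples.

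TGF-beta family ligands are secreted dimers that bring type I and type II receptor kinases together. TGF-beta and activin receptors pass the signal to SMAD2 and SMAD3, and BMP receptors to SMAD1, SMAD5 and SMAD9; both sets act with SMAD4, and SMAD6 and SMAD7 restrain them. In fat, BMP signals are known to commit progenitors to the adipocyte lineage and to favour brown adipocytes, TGF-beta is known to restrain adipogenesis, and Id1, Id2 and Id3 are classic genes induced by BMP signals.

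Total counts were between 21706345 and 25357403 per library. Titles and library names give opposite gates for the SAT libraries: SAT library 2 is titled CD142+ and named for CD26, and SAT library 1 is titled CD26+ and named for CD142. Dpp4 stood at 1007 CPM (sequencing counts per library size, with libraries scaled by edgeR's TMM method) in SAT library 2 and 6.58 CPM in SAT library 1, and F3 at 5.32 and 618 CPM, so the sort genes followed the names. No library was reassigned. The CD26 gate was fitted under both readings, and the comparison of gate differences between depots by library name only. All 10 fat progenitor markers, Pdgfra and Cd34 among them, were at 1 CPM or more in every library. Summed mesothelial markers (14 genes) were 15.0 CPM in SAT library 2, 265 CPM in SAT library 1, 490 CPM in the VAT CD26+CD142+ library and 308 and 320 CPM in the VAT CD26-CD142+ libraries. In SAT library 1 this sum came mostly from Krt8, Krt18, Krt19 and Cldn15, at 45.8, 46.7, 63.7 and 60.7 CPM. Msln, Bnc1 and Wt1 had no count there. In the VAT CD26-CD142+ libraries the sum came mostly from Wt1, Rspo1 and Cldn15. Summed epithelial markers (11 genes) were 107 CPM in SAT library 1 against at most 8.98 CPM elsewhere. The mitochondrial share of counts was 2.83% in SAT library 1, 4.33% in VAT CD26-CD142+ library 1 and between 0.554% and 0.633% in the other 3 libraries.

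Per gene length, the members covered a wide range of levels. The most abundant member was Fstl1, which encodes a secreted follistatin-like glycoprotein, at a mean of 1413 TPM (a length-scaled share of the library, computed from the counts and the deposited gene lengths), with a range of 746 to 2560 TPM over the 5 libraries. Id3 followed at a mean of 1036 TPM, then Gdf10, a BMP3-related ligand and marker of CD142+ cells, at 778 TPM, and Ltbp4, a matrix protein that anchors latent TGF-beta, at 671 TPM. Nbl1, a DAN-family BMP binder, had a mean of 625 TPM, Tgfbr2, the TGF-beta type II receptor, 330 TPM and Tgfbr3, the coreceptor betaglycan, 269 TPM. Among SMAD genes Smad4 was highest at a mean of 64.1 TPM, with Smad3 at 56.7 TPM and Smad2 at 26.9 TPM. Neighbours in this order had overlapping ranges, for example 498 to 819 TPM for Nbl1 and 114 to 752 TPM for Tgfbr2. At the low end, Gdf5 had no count in any library, and Mstn, Sostdc1 and Grem1 did not pass the count filter either; the other 52 members were tested.

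**Figure D1:**
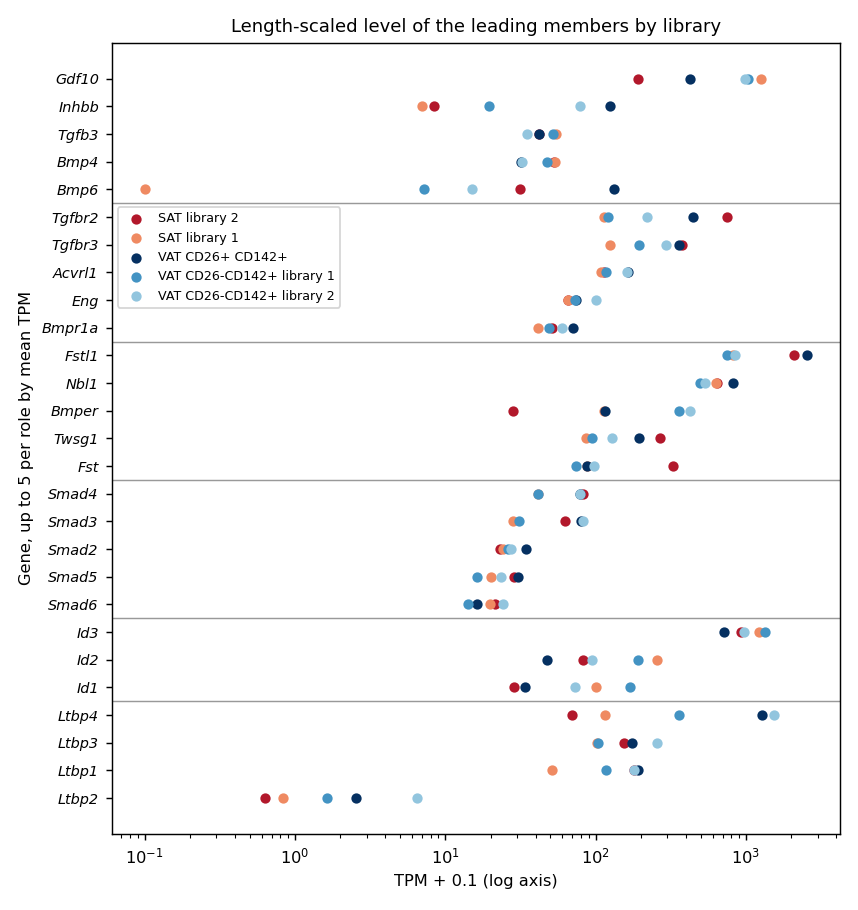
Length-scaled level (TPM + 0.1, log axis) of up to 5 members per role, chosen by mean TPM, with 1 point per library. Fstl1, Id3, Gdf10 and Ltbp4 reach the highest values, and the points of Bmp6 and Ltbp4 are spread most widely along the axis, while those of the SMAD genes lie close together.

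A group of BMP ligand genes was high in SAT library 2 and in the VAT CD26+CD142+ library, the libraries named for CD26. Of 52 tested members, 5 passed the test as higher in the VAT CD26+CD142+ library than in the VAT CD26-CD142+ libraries, all of them BMP ligand genes, and 0 as lower (edgeR's quasi-likelihood test, Benjamini-Hochberg adjustment at 0.05 over 15920 genes). Over all tested genes, 0.898% passed as higher and 0.697% as lower. At an unadjusted p under 0.05 there were 14 members in either direction. DESeq2 called 7, adding Bmper and Id1 as lower, and limma-voom called 4, Bmp2, Bmp6 and Bmp7 as higher and Bmper as lower. Over all 15920 tested genes, DESeq2 called 347 and limma-voom 222 in either direction. The lone VAT CD26+CD142+ library was assumed to vary like the VAT CD26-CD142+ pair, which gave 1 residual degree of freedom.

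Bmp7 (ENSMUSG00000008999, mm10 chromosome 2, 172868012 to 172940321), a ligand known for promoting brown adipocyte formation, was at 68.1 CPM in the VAT CD26+CD142+ library, compared with 1.28 and 1.85 CPM in VAT CD26-CD142+ libraries 1 and 2. The difference was 43.2-fold (95% counting interval 34.1 to 55.7), a log2 change of 5.44 (SE 0.52, computed as the absolute change over the root of the F statistic, edgeR adjusted p = 6.7e-05). In SAT it was at 96.5 CPM in library 2, and library 1 held no count, with a 95% Poisson upper limit of 0.16 CPM. The VAT CD26+CD142+ library and SAT library 2 were thus both far above the other 3 libraries.

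Bmp6 (ENSMUSG00000039004, chromosome 13, 38345107 to 38500302), known as an inducer of hepcidin in the liver, was at 142 CPM in the VAT CD26+CD142+ library, compared with 9.95 and 17.8 CPM in the VAT CD26-CD142+ libraries. It was 10.1-fold higher (9.27 to 11.0), with a log2 change of 3.35 (SE 0.50, edgeR adjusted p = 0.0021). In SAT it was at 36.3 CPM in library 2 and had no count in library 1. The level in the VAT CD26-CD142+ libraries was low but not near zero, and the VAT CD26+CD142+ library held the highest value of the 5.

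Bmp2 (ENSMUSG00000027358, chromosome 2, 133552159 to 133562885), a ligand of bone and cartilage formation, was at 36.8 CPM in the VAT CD26+CD142+ library, compared with 4.03 and 8.64 CPM in the VAT CD26-CD142+ libraries, 5.75-fold higher (5.03 to 6.58; log2 change 2.54, SE 0.51, edgeR adjusted p = 0.020). It was at 48.1 CPM in SAT library 2 and 3.42 CPM in SAT library 1. The libraries named for CD26 were the highest in both depots.

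Bmp8a (ENSMUSG00000032726, chromosome 4, 123312645 to 123343252) was at 5.89 CPM in the VAT CD26+CD142+ library, compared with 0.0458 and 0.387 CPM in the VAT CD26-CD142+ libraries, from 143 counts against 1 and 9. The fitted log2 change was 4.71 (SE 0.82, edgeR adjusted p = 0.0095), and with limma-voom the adjusted p was 0.059. Bmp8a passed the count filter only through SAT library 2 and the VAT CD26+CD142+ library, where it was high. Its calls are therefore not independent of the filter. It was at 21.5 CPM in SAT library 2 and had no count in SAT library 1. Reads of Bmp8a and its near copy Bmp8b may be divided by the counting, and Bmp8b was at most at 0.0824 CPM.

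Bmp3 (ENSMUSG00000029335, chromosome 5, 98854415 to 98884396), a ligand known for opposing osteogenic BMPs, rested on few counts in VAT, with 19 counts in the VAT CD26+CD142+ library and none in either VAT CD26-CD142+ library. It was at least 11.8-fold higher against a floor of 3 counts over the pair, and the edgeR adjusted p was 0.013. The call was lost with limma-voom (adjusted p = 0.21), without SAT library 2 (0.21) and with the VAT libraries fitted alone (0.24). Bmp3 was at 26.1 CPM in SAT library 2 and 0.563 CPM in SAT library 1, so its level was high in SAT library 2 alone.

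**Figure D2:**
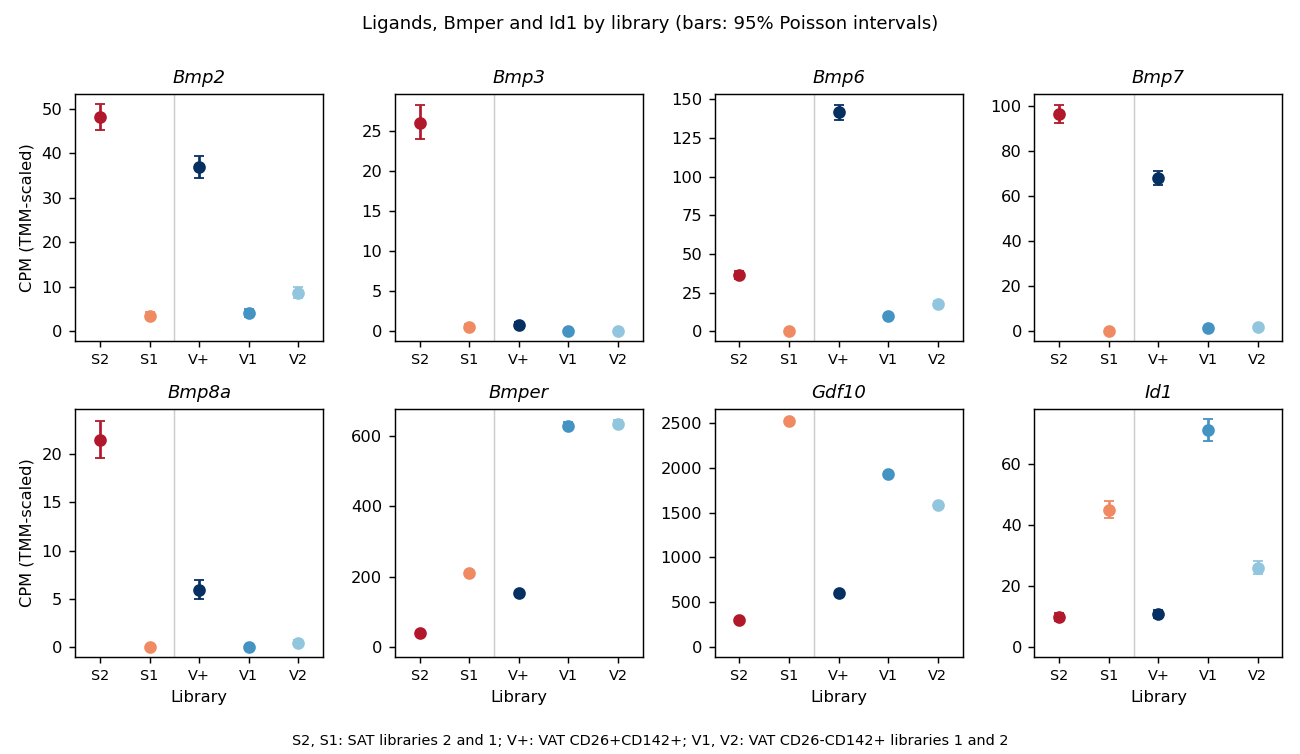
CPM of 5 BMP ligand genes, Bmper, Gdf10 and Id1 in each library, with the SAT libraries left of the grey line, the VAT libraries right of it and 95% Poisson intervals as bars. SAT library 2 and the VAT CD26+CD142+ library are the highest for Bmp2, Bmp3, Bmp6, Bmp7 and Bmp8a and the lowest for Gdf10, Bmper and Id1.

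Summed per length, Bmp2, Bmp3, Bmp6, Bmp7 and Bmp8a came to 199 TPM in SAT library 2 and 2.69 TPM in SAT library 1, and to 242 TPM in the VAT CD26+CD142+ library, compared with 11.2 and 24.8 TPM in the VAT CD26-CD142+ libraries. In bulk samples, more cells of a type and more RNA per cell cannot be told apart. Mesothelial markers moved in part with the BMP genes in VAT: 14 of 14 were at 1 CPM or more in the VAT CD26+CD142+ library, compared with 3 and 7 of 14 in the VAT CD26-CD142+ libraries, and 5 of 14 passed the test as higher. Among them Msln was at 38.5 CPM against 0.779 and 2.41 CPM. The markers most abundant in the VAT CD26-CD142+ libraries did not move this way. Wt1 was at 112 CPM against 113 and 154 CPM, and Rspo1 at 101 CPM against 103 and 88.3 CPM. Cldn15 was lower, at 15.1 CPM against 89.1 and 59.4 CPM. In SAT library 2, where the summed BMP level was also high, 3 of 14 were at 1 CPM or more and Msln had no count. Summed endothelial markers (11 genes) were 330 CPM in SAT library 2 and 41.0 CPM in SAT library 1, and 311 CPM in the VAT CD26+CD142+ library, compared with 80.7 and 78.2 CPM in the VAT CD26-CD142+ libraries. Most of this was Tek, at 286 to 290 CPM in the libraries named for CD26, while the defining genes Pecam1 and Cdh5 stayed between 1.16 and 7.26 CPM throughout. The part of other cell types in the BMP levels was not tested.

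The promoter windows of 4 members are shown because these genes mark opposite sides of the pattern: Bmp6 and Bmp8a were high, and Bmper and Gdf10 low, in the libraries named for CD26. Each is the 300-base RefSeq window of GRCm38.p6 (the mm10 build), from 250 bases before the gene start to 50 bases after it, read 5′ to 3′ on the gene's strand. The starts are RefSeq's, and for Bmp6 that start lies downstream of the gene start in the count table. The windows are chr13:38345466-38345765 (plus strand) for Bmp6, chr4:123343203-123343502 (minus strand) for Bmp8a, chr9:23222826-23223125 (plus strand) for Bmper and chr14:33923337-33923636 (plus strand) for Gdf10. Capitals mark matches on either strand to CAGAC, whose reverse complement is GTCTG and which is the core bound by SMAD3 and SMAD4, and to GGCGCC, a palindromic GC-rich element bound by the BMP SMADs.
Bmp6: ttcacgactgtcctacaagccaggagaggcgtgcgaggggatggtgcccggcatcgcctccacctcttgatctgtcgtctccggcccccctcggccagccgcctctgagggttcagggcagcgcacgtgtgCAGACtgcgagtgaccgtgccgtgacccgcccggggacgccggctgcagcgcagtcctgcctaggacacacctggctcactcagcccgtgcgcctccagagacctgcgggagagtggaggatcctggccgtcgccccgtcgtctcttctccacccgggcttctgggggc
Bmp8a: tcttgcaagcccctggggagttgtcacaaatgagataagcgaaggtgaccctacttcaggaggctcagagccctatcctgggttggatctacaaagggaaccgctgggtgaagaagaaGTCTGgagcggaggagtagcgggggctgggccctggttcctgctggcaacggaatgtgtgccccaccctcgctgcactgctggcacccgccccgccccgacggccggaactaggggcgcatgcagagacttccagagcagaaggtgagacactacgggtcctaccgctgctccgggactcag
Bmper: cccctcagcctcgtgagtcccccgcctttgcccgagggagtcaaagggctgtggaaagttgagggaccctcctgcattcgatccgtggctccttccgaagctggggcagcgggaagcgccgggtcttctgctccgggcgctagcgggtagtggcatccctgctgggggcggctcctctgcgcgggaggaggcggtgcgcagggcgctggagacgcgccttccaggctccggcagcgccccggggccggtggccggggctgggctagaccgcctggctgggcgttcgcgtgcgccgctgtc
Gdf10: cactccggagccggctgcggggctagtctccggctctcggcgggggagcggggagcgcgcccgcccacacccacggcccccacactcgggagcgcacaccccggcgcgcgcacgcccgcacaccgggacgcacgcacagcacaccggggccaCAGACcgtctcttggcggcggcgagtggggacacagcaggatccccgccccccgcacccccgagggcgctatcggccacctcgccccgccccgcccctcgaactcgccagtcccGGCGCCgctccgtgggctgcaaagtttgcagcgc
Bmp6 and Bmp8a held 1 CAGAC match each, Gdf10 held 1 CAGAC and 1 GGCGCC match, and Bmper held neither. Of all 32851 windows of the same length, 49.6% held CAGAC and 11.9% held GGCGCC on either strand. RefSeq windows were found for 40 of the 56 members.

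The SAT libraries hold 1 library a side, so their differences have no replicate check and no test. By a rule of 10 CPM or more in the higher library and a 2-fold difference after adding 1 CPM to both, 11 members were higher and 6 lower in SAT library 2 than in SAT library 1, of 41 at that level. Of the 9677 tested genes at that level, 1079 were higher and 1081 lower by this rule. These are 6.78% and 6.79% of all 15920 tested genes, whatever their level. Among the BMP ligands, Bmp2 was 14.1-fold higher (counting interval 11.2 to 17.9) and Bmp3 46.4-fold higher (26.9 to 87.7) in SAT library 2. Against a floor of 3 counts in SAT library 1, Bmp7 was at least 744-fold, Bmp6 at least 279-fold and Bmp8a at least 165-fold higher in SAT library 2. The other members higher in SAT library 2 were Tgfbr1, Tgfbr2, Tgfbr3, Fst, Twsg1 and Ltbp1, and the lower ones were Gdf10, Acvr2a, Bmper, Id1, Id2 and Ltbp4.

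The VAT gate difference and the SAT pair difference share no library. They had the same sign for 39 of 52 members (75%), close to the 73.7% of all 15920 tested genes. Of the members more than 2-fold apart in both, 13 of 13 had the same sign, against 1363 of 1476 such genes (92.3%). These counts take SAT library 2 over SAT library 1, the direction by library name; by title every SAT sign is turned round. With SAT read by library name, the 2 gate differences differed from each other (VAT minus SAT) at 2 members, Bmp6 and Bmp7, both with a smaller gate difference in VAT, while 0.251% of all genes passed in either direction. Both fitted values, -9.35 for Bmp6 (SE 1.62, edgeR adjusted p = 0.021) and -8.68 for Bmp7 (SE 1.60, edgeR adjusted p = 0.032), rest on a SAT library 1 with 0 counts and so depend on the prior count. With limma-voom neither passed (adjusted p = 0.53 for Bmp6 and 0.61 for Bmp7).

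**Figure D3:**
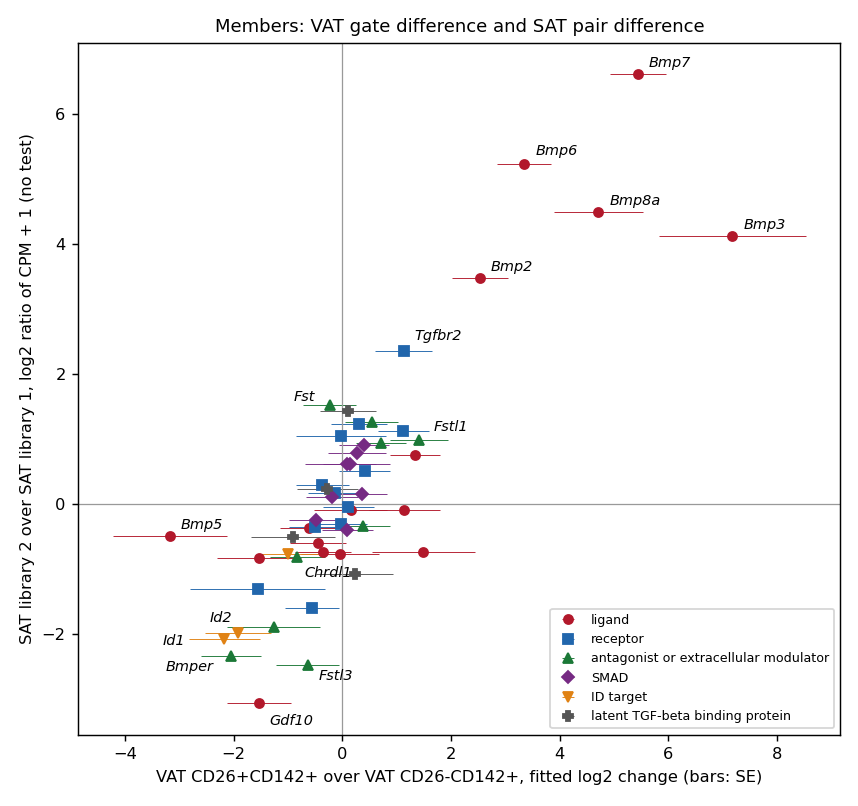
Fitted log2 change of VAT CD26+CD142+ over VAT CD26-CD142+ (x axis, bars are SE) against the log2 ratio of SAT library 2 over SAT library 1 with a pseudocount of 1 CPM (y axis, no test) for the tested members, with symbols by role. Bmp2, Bmp3, Bmp6, Bmp7 and Bmp8a lie far to the upper right, and Gdf10, Bmper, Id1 and Id2 to the lower left.

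Among the remaining ligands, Gdf10 (ENSMUSG00000021943, chromosome 14, 33923587 to 33937983) went the other way. It was at 299 CPM in SAT library 2 and 2522 CPM in SAT library 1, 8.43-fold lower in library 2 (8.22 to 8.65). In VAT it was at 605 CPM in the CD26+CD142+ library, compared with 1934 and 1579.9 CPM in the CD26-CD142+ libraries (log2 change -1.54, SE 0.59, edgeR adjusted p = 0.37), which does not pass. The libraries named for CD26 were the lowest in both depots.

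The TGF-beta genes themselves differed less. Tgfb2 was at 70.2 CPM in the VAT CD26+CD142+ library, compared with 28.1 and 27.4 CPM in the VAT CD26-CD142+ libraries, and at 35.5 CPM in SAT library 2 and 20.7 CPM in SAT library 1. Its VAT log2 change of 1.34 did not pass (edgeR adjusted p = 0.26). Tgfb1 stayed between 10.0 and 29.8 CPM and Tgfb3 between 36.1 and 70.6 CPM in the 5 libraries. Bmp4, which commits progenitors to the adipocyte lineage, was between 19.6 and 46.4 CPM, and no comparison called it.

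Inhbb (ENSMUSG00000037035, chromosome 1, 119415465 to 119422248), the activin B subunit gene, was low in SAT. It was at 10.6 and 11.4 CPM in SAT libraries 2 and 1, against 145 CPM in the VAT CD26+CD142+ library and 29.7 and 102 CPM in the VAT CD26-CD142+ libraries. Every SAT library was below every VAT library, but the VAT CD26-CD142+ libraries differed 3.45-fold between themselves (3.16 to 3.77) and the depot log2 change of -3.07 (SE 0.73) did not pass (edgeR adjusted p = 0.42). The other tested ligands, Bmp5, Gdf6, Gdf11, Gdf15 and Inhba, were under 7 CPM in every library. None was called with edgeR, and DESeq2 called Bmp5 as lower for the CD26 gate by library name.

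Of the 12 receptor genes, 0 passed in VAT (2 at an unadjusted p under 0.05; none with DESeq2 or limma-voom). Tgfbr2 (ENSMUSG00000032440, chromosome 9, 116084293 to 116175360) was at 1833 CPM in SAT library 2 and 360.1 CPM in SAT library 1, a 5.09-fold difference (4.97 to 5.21). In VAT it was at 992 CPM in the CD26+CD142+ library, compared with 358 and 549.8 CPM in the CD26-CD142+ libraries (log2 change 1.13, SE 0.53, edgeR adjusted p = 0.59). The libraries named for CD26 were the highest, but in VAT the difference did not pass. Its partner Tgfbr1, the type I receptor, followed the same order at lower levels, with 46.6 CPM in SAT library 2 and 20.9 CPM in SAT library 1, and with 44.0 CPM in the VAT CD26+CD142+ library, compared with 16.2 and 24.2 CPM in the VAT CD26-CD142+ libraries.

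Tgfbr3 was at 731 CPM in SAT library 2 and 313 CPM in SAT library 1, and at 645 CPM in the VAT CD26+CD142+ library, compared with 457 and 591 CPM in the VAT CD26-CD142+ libraries. Acvr2a, an activin type II receptor, was at 28.1 CPM in SAT library 2 and 87.8 CPM in SAT library 1, and at 31.5 CPM in the VAT CD26+CD142+ library, compared with 41.6 and 51.3 CPM in the VAT CD26-CD142+ libraries. Of the receptors known to bind BMPs, 3 varied less: Bmpr1a stayed between 97.4 and 123 CPM, Bmpr2 between 71.9 and 126 CPM and Acvr1 between 29.3 and 43.7 CPM. The BMP type I receptor gene Bmpr1b was scarce, with 1 count in SAT library 2 and 37 in SAT library 1, and with 9 in the VAT CD26+CD142+ library, compared with 22 and 28 in the VAT CD26-CD142+ libraries. The endothelial-associated receptors Acvrl1 and Eng were present in every library, at 144 to 212 CPM and 78.8 to 125 CPM.

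Among antagonists and modulators, Bmper (ENSMUSG00000031963, chromosome 9, 23223076 to 23485200), which binds BMPs outside the cell, was low where Bmp2, Bmp3, Bmp6, Bmp7 and Bmp8a were high. It was at 40.6 CPM in SAT library 2 and 211 CPM in SAT library 1, 5.18-fold lower in library 2 (4.82 to 5.57). In VAT it was at 152 CPM in the CD26+CD142+ library, compared with 628 and 634 CPM in the CD26-CD142+ libraries, 4.15-fold lower (4.01 to 4.30), with a log2 change of -2.05 (SE 0.55) that did not pass with edgeR (adjusted p = 0.095) but was called with DESeq2 and with limma-voom.

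Fstl1 was at 3062 CPM in SAT library 2 and 1561 CPM in SAT library 1, and at 3445 CPM in the VAT CD26+CD142+ library, compared with 1323 and 1275 CPM in the VAT CD26-CD142+ libraries (log2 change 1.41, edgeR adjusted p = 0.36). The libraries named for CD26 were the highest, without passing the test in VAT. Chordin (Chrd), another BMP-binding antagonist, was at 98.8 CPM in SAT library 2 and 51.5 CPM in SAT library 1, and at 88.6 CPM in the VAT CD26+CD142+ library, compared with 50.01 and 58.6 CPM in the VAT CD26-CD142+ libraries. Its partner Twsg1 was at 412 CPM in SAT library 2 and 172 CPM in SAT library 1, and at 276 CPM in the VAT CD26+CD142+ library, compared with 176 and 204 CPM in the VAT CD26-CD142+ libraries. Noggin (Nog), which sequesters BMPs, was counted 2 times in SAT library 2 and 71 times in SAT library 1, 34.1-fold lower in library 2 (9.09 to 287), and was at 2.27 CPM in the VAT CD26+CD142+ library, compared with 2.66 and 8.26 CPM in the VAT CD26-CD142+ libraries. Nbl1 stayed between 334 and 495 CPM.

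Chrdl1 (ENSMUSG00000031283, chromosome X, 143285674 to 143394262), a chordin-like BMP binder, was high in SAT. It was at 242 and 428 CPM in SAT libraries 2 and 1, against 15.9 CPM in the VAT CD26+CD142+ library and 25.8 and 30.5 CPM in the VAT CD26-CD142+ libraries. Every SAT library was far above every VAT library, 14.1-fold over the depots (13.4 to 14.8). The depot log2 change of 3.80 (SE 0.42) did not pass with edgeR (adjusted p = 0.15).

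**Figure D4:**
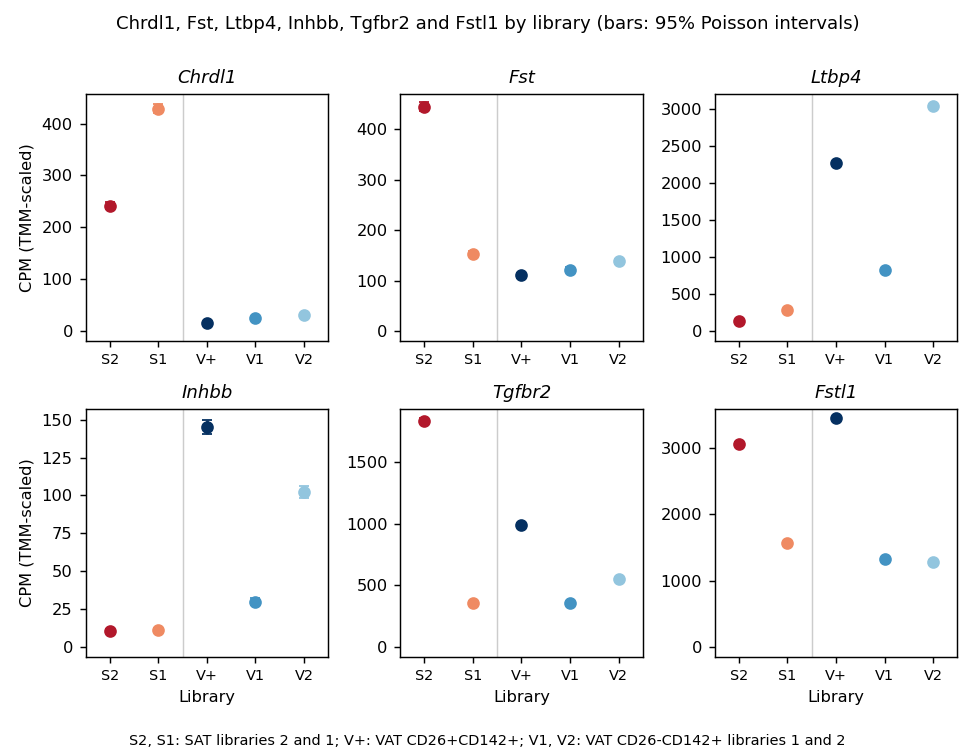
CPM of Chrdl1, Fst, Ltbp4, Inhbb, Tgfbr2 and Fstl1 in each library, with the SAT libraries left of the grey line, the VAT libraries right of it and 95% Poisson intervals as bars. Chrdl1 and Fst are higher in both SAT libraries than in any VAT library, Ltbp4 and Inhbb are lower, and Tgfbr2 and Fstl1 are highest in SAT library 2 and the VAT CD26+CD142+ library.

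Follistatin (Fst), which binds activins, was at 444 and 154 CPM in SAT libraries 2 and 1, against 111 CPM in the VAT CD26+CD142+ library and 122 and 138 CPM in the VAT CD26-CD142+ libraries. SAT library 2 stood apart, and SAT library 1 was just above the VAT libraries. The related Fstl3 was at 0.722 CPM in SAT library 2 and 8.65 CPM in SAT library 1, and between 8.70 and 16.5 CPM in VAT, so it was low in SAT library 2 alone.

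The SMAD genes changed little. Of 8 tested, 0 passed in VAT, with 0 at an unadjusted p under 0.05 and none with DESeq2 or limma-voom, and their median log2 change there was 0.11. Smad4 stayed between 55.2 and 90.4 CPM, Smad2 between 24.4 and 33.5 CPM and Smad5 between 42.9 and 63.5 CPM. Smad3 had the widest spread in CPM among them, lying between 60.0 CPM (SAT library 1) and 140 CPM (VAT CD26-CD142+ library 2), and the VAT CD26-CD142+ libraries themselves differed 2.26-fold. The inhibitory Smad6 and Smad7 were between 14.2 and 25.0 CPM in all libraries.

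The ID genes were low where Bmp2, Bmp3, Bmp6, Bmp7 and Bmp8a were high, without passing the test. Id1 (ENSMUSG00000042745, chromosome 2, 152736251 to 152737410) was at 9.83 CPM in SAT library 2 and 45.0 CPM in SAT library 1, and at 10.8 CPM in the VAT CD26+CD142+ library, compared with 71.0 and 26.0 CPM in the VAT CD26-CD142+ libraries. Id2 was at 59.7 CPM in SAT library 2 and 240.2 CPM in SAT library 1, and at 31.7 CPM in the VAT CD26+CD142+ library, compared with 169 and 70.9 CPM in the VAT CD26-CD142+ libraries. Id3 was at 493 CPM in SAT library 2 and 845 CPM in SAT library 1, and at 351 CPM in the VAT CD26+CD142+ library, compared with 869 and 534 CPM in the VAT CD26-CD142+ libraries. For each of the 3 genes, the libraries named for CD26 were the lowest, as they were for 17.3% of all tested genes. The VAT log2 changes were -2.17 for Id1 (edgeR adjusted p = 0.19) and -1.92 for Id2 (edgeR adjusted p = 0.21), the adjusted p for Id3 was 0.83, and the VAT CD26-CD142+ libraries differed 2.73-fold for Id1. Summed per length, the ID genes came to 1035 TPM in SAT library 2 and 1579 TPM in SAT library 1, and to 796 TPM in the VAT CD26+CD142+ library, compared with 1707 and 1140 TPM in the VAT CD26-CD142+ libraries. Mature adipocyte and mural marker sums were also lowest in the libraries named for CD26, but did not follow the ID order elsewhere. In VAT CD26-CD142+ library 2 both sums were above those of library 1, while each ID gene was below. Summed mature adipocyte markers (10 genes) were 14.2 CPM in SAT library 2 and 177 CPM in SAT library 1, and 19.9 CPM in the VAT CD26+CD142+ library, compared with 161 and 194 CPM in the VAT CD26-CD142+ libraries, and 2 of 10 passed as lower in VAT. Of these, 3 and 7 of 10 were at 1 CPM or more in SAT libraries 2 and 1, and 4 of 10 in the VAT CD26+CD142+ library, compared with 8 and 7 of 10 in the VAT CD26-CD142+ libraries. Car3 made up most of the sum where it was high, and the defining gene Adipoq had no count in SAT library 2 and at most 5.32 CPM elsewhere. Summed mural markers (10 genes) were 57.6 CPM in SAT library 2 and 154 CPM in SAT library 1, and 120 CPM in the VAT CD26+CD142+ library, compared with 216 and 228 CPM in the VAT CD26-CD142+ libraries, and 2 of 10 passed as lower. Of these, 7 of 10 were at 1 CPM or more in the VAT CD26+CD142+ library and 9 of 10 in every other library. Single genes made up much of the mural sums, Abcc9 in SAT library 1 (98.2 CPM) and Des in the VAT libraries (96.5 to 138 CPM). Des went the other way in SAT, at 14.4 and 3.20 CPM in libraries 2 and 1. Rgs5 went the other way in both depots, at 4.06 and 2.34 CPM in SAT libraries 2 and 1. In VAT, Rgs5 was at 2.60 CPM in the CD26+CD142+ library, compared with 2.06 and 1.38 CPM in the CD26-CD142+ libraries. The 3 ID genes were also at their highest in SAT library 1 and VAT CD26-CD142+ library 1, the libraries with the largest mitochondrial share. The part of these in the ID levels was not tested.

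Latent TGF-beta binding proteins bind latent TGF-beta or fibrillin in the extracellular matrix. Ltbp4 (ENSMUSG00000040488, chromosome 7, 27305136 to 27337692) was at 135 and 288 CPM in SAT libraries 2 and 1, against 2270.1 CPM in the VAT CD26+CD142+ library and 831 and 3037 CPM in the VAT CD26-CD142+ libraries. All VAT libraries were above both SAT libraries, and the VAT CD26-CD142+ pair differed 3.65-fold (3.59 to 3.71). The depot log2 change of -3.28 (SE 0.76) did not pass (edgeR adjusted p = 0.40). Ltbp1 was lowest in SAT library 1, at 207 CPM, and between 445 and 578 CPM elsewhere; Ltbp3 was between 193 and 408 CPM. Ltbp2, which does not bind latent TGF-beta, was at 1.31 and 2.29 CPM in SAT libraries 2 and 1, against 5.44 CPM in the VAT CD26+CD142+ library and 4.49 and 16.0 CPM in the VAT CD26-CD142+ libraries.

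**Figure D5:**
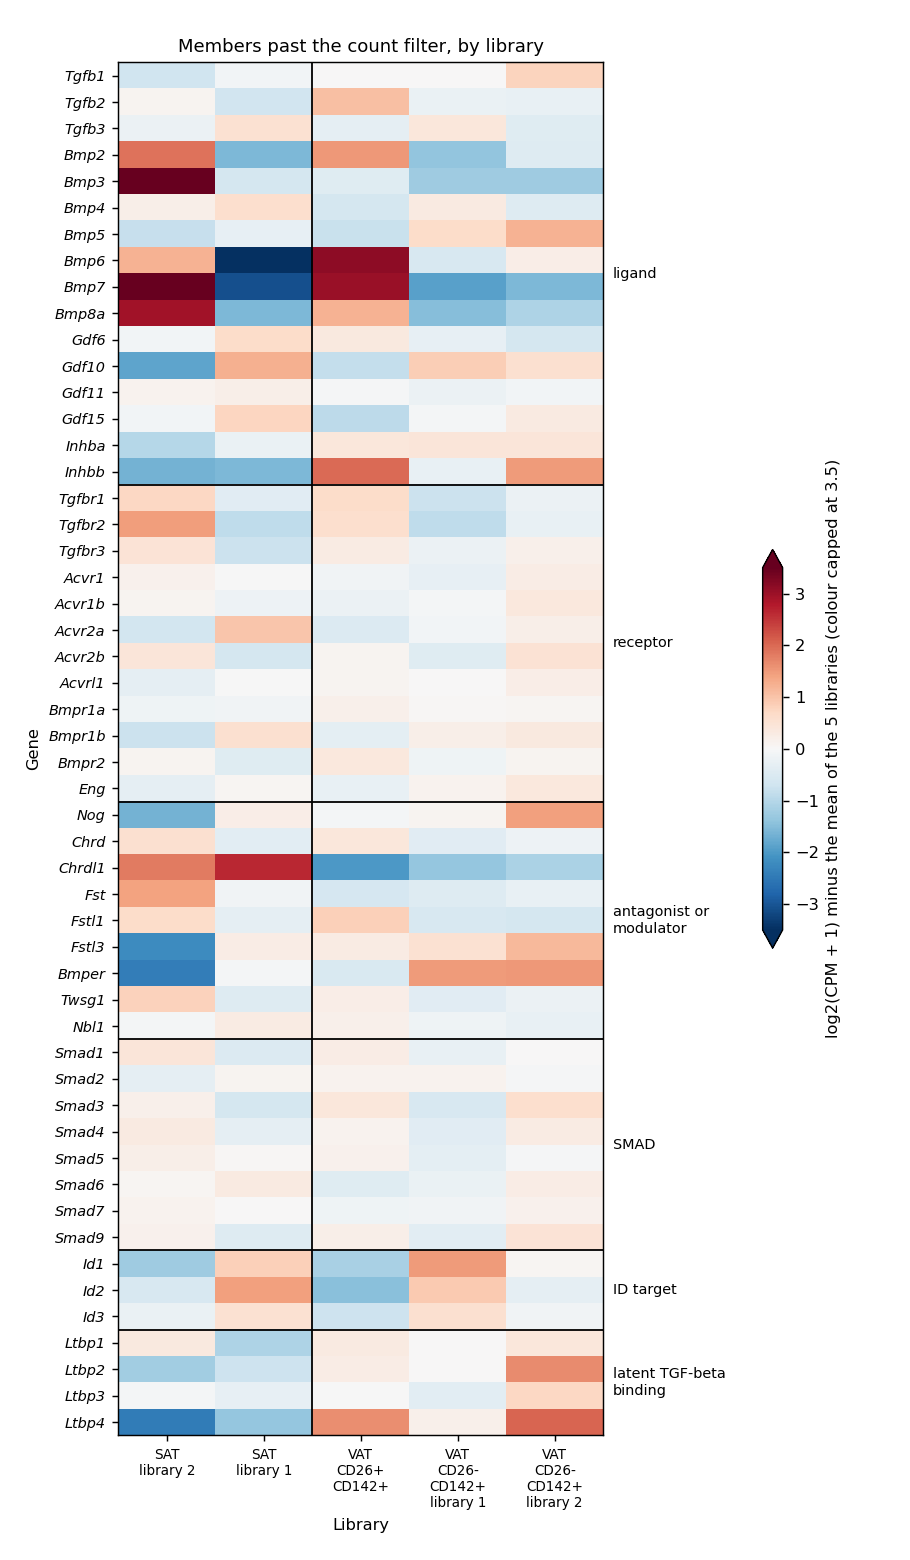
log2(CPM + 1) of the 52 tested members in each library, minus the mean of the 5 libraries, grouped by role, with colour capped at 3.5 on either side and the depots parted by a vertical line. Red cells of Bmp2, Bmp6, Bmp7 and Bmp8a stand in SAT library 2 and the VAT CD26+CD142+ library, the rows of Chrdl1 and Ltbp4 change colour at the line between depots, and the SMAD rows are pale.

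Between depots over all gates, 0 of 52 members passed (7 at an unadjusted p under 0.05; 3 with DESeq2, namely Chrdl1 as higher and Ltbp4 and Inhbb as lower in SAT; 0 with limma-voom), and 0.0503% of all genes did. The median log2 change was 0.01 over the members and 0.01 over all tested genes. Both SAT libraries were above all VAT libraries for 3 members, Gdf11, Chrdl1 and Fst, and below them for 8, Tgfb1, Inhba, Inhbb, Acvrl1, Bmpr1a, Fstl3, Ltbp2 and Ltbp4. Over all tested genes, 9.64% were above and 10.2% below in this way, so the members' counts lie near the background.

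Each SAT library was also set against the VAT CD26-CD142+ pair; both comparisons, and the VAT gate comparison, share that pair. SAT library 2 differed at 12 members, 7 higher (Bmp2, Bmp3, Bmp7, Bmp8a, Tgfbr2, Chrdl1 and Fst) and 5 lower (Gdf10, Nog, Fstl3, Bmper and Ltbp4), where 2.8% of all genes were higher and 3.68% lower. Bmp7 was 61.3-fold higher (48.4 to 78.8; edgeR adjusted p = 5.7e-06), Bmp3 at least 392-fold higher against the floor, and Bmper 15.5-fold lower (14.5 to 16.6; edgeR adjusted p = 6.8e-04). Tgfbr2 was 4.01-fold higher (log2 change 2.01, SE 0.53, edgeR adjusted p = 0.028) and Fst 3.41-fold higher (1.77, SE 0.47, adjusted p = 0.030). Gdf10 fell by 2.55 on the log2 scale (SE 0.63, edgeR adjusted p = 0.019) and Ltbp4 by 3.84 (SE 0.88, adjusted p = 0.022). Nog, with 2 counts against 58 and 192, had an edgeR adjusted p of 0.0079 and 0.20 with limma-voom, and Fstl3 was 18.9-fold lower (11.5 to 33.2; adjusted p = 0.0018). Bmp8a passed the count filter only through SAT library 2 and the VAT CD26+CD142+ library, and without the latter it was not tested.

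SAT library 1 differed from the same pair at 4 members, Bmp3 and Chrdl1 as higher and Bmp6 and Bmp7 as lower, where 1.36% of all genes were higher and 0.992% lower. Chrdl1 was 15.2-fold higher (14.3 to 16.1) in SAT library 1 and 8.57-fold higher (8.06 to 9.11) in SAT library 2, with edgeR adjusted p = 2.4e-04 and 4.8e-04. With no count in SAT library 1, Bmp6 was at least 108-fold and Bmp7 at least 12.1-fold lower there (edgeR adjusted p = 1.7e-04 and 0.0037), and Bmp7 did not pass with limma-voom (adjusted p = 0.20). Bmp3 rested on 13 counts against 0 and lost its call with limma-voom (0.28) and without SAT library 2 (0.23).

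With depot as a term, the CD26 gate gave different calls under the titles and the names. By title 0 members passed (0 at an unadjusted p under 0.05; 0 with DESeq2 and 0 with limma-voom), and 0% of all genes did. By library name Bmp3 passed as higher (log2 change 5.73, SE 0.61, edgeR adjusted p = 0.042) and Bmper as lower (-2.19, SE 0.26, edgeR adjusted p = 0.0499), where 0.32% of all genes passed as higher and 0.276% as lower. Bmper fell just outside the threshold without VAT CD26-CD142+ library 1 (edgeR adjusted p = 0.064) and kept its call without VAT CD26-CD142+ library 2. Leaving out a SAT library or the VAT CD26+CD142+ library leaves the gate comparison of 1 depot only. In these fits Bmper lost its call, and Bmp3 lost its call without SAT library 2. With the number that ends the library names added as a replicate block, neither gene passed (edgeR adjusted p = 0.32 for Bmp3 and 0.26 for Bmper). Both libraries named for CD26 end in 2, so this number overlaps with the gate. DESeq2 called 15 members by library name, 9 higher and 6 lower, and limma-voom called 3. Over all 15920 tested genes, DESeq2 called 1329 and limma-voom 127. Without a test, 14 members were higher in both libraries named for CD26 than in all others and 11 lower, against 16.8% and 17.3% of all tested genes. The higher ones include Tgfb2, Tgfbr1, Tgfbr2, Tgfbr3, Chrd, Fstl1, Twsg1, Smad1 and Smad5 beside Bmp2, Bmp3, Bmp6, Bmp7 and Bmp8a.

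Of 100 other genes of the pathway, 81 were tested. In VAT, 3 were higher in the CD26+CD142+ library and 0 lower, all 3 from the list of antagonists and ligand-processing genes. Over all tested genes, 0.898% passed as higher and 0.697% as lower. Pcsk6, a proprotein convertase that processes ligands of this family, was at 1179 CPM in the VAT CD26+CD142+ library, compared with 68.4 and 131 CPM in the VAT CD26-CD142+ libraries (log2 change 3.56, SE 0.54, edgeR adjusted p = 0.0025), and at 869 CPM in SAT library 2 and 33.5 CPM in SAT library 1. Fbn1, the fibrillin of matrix microfibrils that hold latent ligands, was at 4179.9 CPM in the VAT CD26+CD142+ library, compared with 533 and 889 CPM in the VAT CD26-CD142+ libraries (2.56, SE 0.55, edgeR adjusted p = 0.027). Kcp, a chordin-family modulator, was at 159 CPM against 15.4 and 34.1 CPM (2.68, SE 0.52, edgeR adjusted p = 0.014). Over all 81, DESeq2 called 4 as higher and 1 as lower, and limma-voom 3 as higher and 1 as lower. Of 26 tested response genes, 0 passed with edgeR in VAT (7 at an unadjusted p under 0.05; 1 with DESeq2 and 0 with limma-voom), and their median log2 change was -0.55 against -0.03 over all genes.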

How the data were processed

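Raw read counts per Ensembl gene, not normalized, were deposited by the authors in 1 table for 5 poly(A)-selected libraries, with gene lengths in another unit, bases. The submitters' processing notes name mm10 as the build, and featureCounts 1.5.0-p3, HISAT2 2.0.5 and CASAVA as tools. The annotation release and the strand setting of the counting are not given in the sources used here, so reads of overlapping antisense genes cannot be told apart. Libraries were grouped by title, and SAT gates were also read by library name.

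Counts were scaled by TMM in edgeR 4.0.16 (R 4.3.3). Low counts were removed with filterByExpr (depot groups, minimum count 10), which kept 15920 genes of 54532. Tests were robust quasi-likelihood F tests with Benjamini-Hochberg adjustment at 0.05, with 3 residual degrees of freedom for depot, 2 for the CD26 gate with depot as a term and 1 for contrasts in the 4-group fit, where a lone library is assumed to vary like the VAT CD26-CD142+ pair. The edgeR fits were tried on counts simulated from each gene's mean over the libraries, with known changes in genes above a mean of 10 CPM. Changes in scarcer genes, such as Bmp3, Bmp8a and Nog, were not simulated, and no call here rests on this trial. Intervals at 95% (exact Poisson, or exact conditional for ratios) and the floor of 3 counts cover counting error only. Alternatives were DESeq2 1.42.0, limma-voom 3.58.1, other scaling, no filter, added terms and leaving out each library.

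The members and gene lists were chosen with earlier results of these data known. Members were given full values where called, where at 10 CPM or more and 2-fold apart between gates or depots, or where among the 3 most abundant of a role; other pathway genes were named only where called, at most the 5 largest a comparison. One pathway gene that this rule would name is not reported here.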

Additional observations from a re-analysis of the deposited data

Results flagged for a closer look

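Bmp6 and Bmp7 differed between depots in the gate effect. The log2 change of VAT CD26+CD142+ over VAT CD26-CD142+ minus that of SAT library 2 over SAT library 1 was -9.35 for Bmp6 (edgeR adjusted p = 0.021) and -8.68 for Bmp7 (edgeR adjusted p = 0.032). Bmp6 was at 142 CPM in the VAT CD26+CD142+ library, compared with 9.95 and 17.8 CPM in the VAT CD26-CD142+ libraries, and at 36.3 CPM in SAT library 2 against no count in SAT library 1. Bmp7 was at 68.1 CPM against 1.28 and 1.85 CPM in the same libraries, and at 96.5 CPM in SAT library 2 against no count in SAT library 1. Both genes were higher in the library named for CD26 in each depot. Both fitted values rest on SAT library 1, which had no count, and depend on the prior count; with limma-voom neither passed (adjusted p = 0.53 for Bmp6 and 0.61 for Bmp7).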

How the results depend on the processing

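Each tested comparison was repeated with other scaling, DESeq2, limma-voom, no filter on low counts, mitochondrially encoded genes left out and, where it could still be formed, each library left out; the SAT pair, which has no test, was repeated with other scaling, pseudocount, minimum level and mitochondrially encoded genes left out. No member called with all libraries changed sign in its comparison. Between depots, 0 members passed, against 3 with DESeq2, 1 with no filter and 2 with CD26 status by library name as a term; all tested genes gave 8 calls, against 461, 70 and 83. In VAT, 5 members passed, against 8 with no filter (adding Bmper, Id1 and Id2 as lower; 254 and 491 over all genes), and 4 to 5 without a SAT library. By title, 0 passed, and 0 to 6 with 1 library left out; SAT libraries 1 and 2 and the VAT CD26+CD142+ library each raised the count when left out, to 5, 4 and 6; Bmp2, Bmp6 and Bmp7 were called as higher without either SAT library and as lower without the VAT CD26+CD142+ library, and Bmp3 likewise without SAT library 1 and without the VAT CD26+CD142+ library. By library name, 2 passed, against 15 with DESeq2 and 9 with no filter. With the library number as a replicate block 0 passed (edgeR adjusted p = 0.32 for Bmp3 and 0.26 for Bmper). Without VAT CD26-CD142+ libraries 1 and 2 in turn, 1 and 11 passed. Over all genes, the 95 calls became 1329, 775, 0, 138 and 2034 in these settings. Leaving out any other library again left the gate comparison of 1 depot only. The numbers that end the library names are not labelled as pairs, and the replicate block changed no call between depots or by title. Both libraries named for CD26 end in 2, and in SAT the number and the gate cannot be told apart. SAT library 1 and VAT CD26-CD142+ library 1, which had the largest mitochondrial share, end in 1. The difference between depots gave 2, against 0 with limma-voom (40 and 9 over all genes). SAT library 1 against the VAT CD26-CD142+ pair gave 4, against 7 with DESeq2 and 2 with limma-voom (375, 445 and 313 over all genes). SAT library 2 gave 12, with 11 to 15 in all settings (1032, with 858 to 1413, over all genes). The SAT pair gave 17 members at least 2-fold apart, and 17 to 21 in all settings. Apart from the fits that became another comparison, the cause of these differences was not tested. For single members, 191 tested values kept their direction and side of the threshold and 17 lost the call. Without either VAT CD26-CD142+ library the 4-group fit has no residual degrees of freedom; those 46 values carry no test and kept their direction, and 20 moved by more than 1 SD of the VAT CD26-CD142+ pair, which is 0 for Bmp3. Members with few counts, Bmp3, Bmp8a and Nog, are limited by depth.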

Other observations

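Among the 81 tested genes of the other pathway lists, Pcsk6 was the only one that passed edgeR's test for the CD26 gate by library name (log2 change 4.06, SE 0.46, edgeR adjusted p = 0.048), with 23 at an unadjusted p under 0.05 and 10 higher and 8 lower with DESeq2. Of all 15920 tested genes, 0.32% passed edgeR's test as higher and 0.276% as lower, 2551 had an unadjusted p under 0.05, and DESeq2 called 1329. By title 0 passed with edgeR, DESeq2 or limma-voom, with 1 at an unadjusted p under 0.05. Between depots 0 passed with edgeR and 0 with limma-voom, with 19 at an unadjusted p under 0.05, and DESeq2 called 8 as higher and 5 as lower in SAT. Of all 15920 tested genes, 1076 had an unadjusted p under 0.05 in that comparison, and DESeq2 called 461 in either direction. Fmod, a collagen-binding proteoglycan, passed when the VAT gate change was set against the SAT pair (4.47, SE 0.82, edgeR adjusted p = 0.030). Set against the VAT CD26-CD142+ pair, 8 of 81 were higher and 2 lower in SAT library 1, and 5 higher and 7 lower in SAT library 2. Over all tested genes, 1.36% were higher and 0.992% lower in SAT library 1, and 2.8% higher and 3.68% lower in SAT library 2. In SAT library 1 the larger ones included Comp (5.81), Tnc (3.44), the metalloproteinase Tll1 (2.97) and Col1a1 (2.80). In SAT library 2 the largest were Itgb8 (-11.16, fitted with no count in SAT library 2), Fmod (-7.61), Cilp (-6.10), Thbs1 (-5.02) and the proteoglycan Bgn (-3.89), all log2 changes that passed.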
